A study of Zea mays with 36 samples.

Results

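The genes described here are 4 genes of the maize carotenoid pathway, chosen by name and followed across all 36 libraries of a study of the developing maize embryo. They are psy1 (Zm00001d036345), lcyE (Zm00001d011210), crtRB1 (Zm00001d026056) and zep1 (Zm00001d003513), 4 of the 63340 features in the table. The study set embryos of a high-oil line beside those of a low-oil line at 6 ages, 5 days apart from 15 to 40 days after pollination, with 3 RNA-seq libraries of poly(A)-selected RNA for each line and age. Each oil level is 1 line, so oil content and other differences between the lines cannot be told apart. Seeds of both lines had been left in water overnight before dissection. Whether the libraries within a group are from different plants is not stated in the labels, so p-values measure the spread between these libraries, which may be partly technical.

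Carotenoids are built in plastids from geranylgeranyl diphosphate. Phytoene synthase, encoded by psy1, joins a pair of these molecules into phytoene and is the entry enzyme of the pathway. Later enzymes turn phytoene into red lycopene, where the pathway divides. Lycopene epsilon-cyclase, encoded by lcyE, opens the branch to alpha-carotene and lutein, while the other branch leads to beta-carotene. The beta-carotene hydroxylase crtRB1 converts beta-carotene to zeaxanthin. Zeaxanthin epoxidase, encoded by zep1, converts zeaxanthin toward violaxanthin, from which plants make abscisic acid, the hormone that holds the maturing seed back from germinating. In maize, psy1 is the yellow endosperm gene y1, and natural variants of lcyE and crtRB1 are known from breeding for provitamin A in the grain.

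Levels are RPKM, reads scaled by the length of a feature and by the library total, so levels of different genes can be set side by side. Library totals ran from 41247297 to 66760746 reads assigned to features. Differences were tested with limma on log2(RPKM + 1) in 1 fit of all 12 groups, over the 28048 features that reached 1 RPKM in 3 or more libraries. A difference passed when its Benjamini-Hochberg adjusted p over those features was below 0.05. This log scale understates changes of genes near or below 1 RPKM. Where groups are said not to overlap, this only describes their libraries. The share of all features without overlap was not counted, so it is not a result about these genes. Of the 4 genes, 3 were tested, and zep1 was too low. The libraries with the lowest mean correlation to their own group were replicate 1 of the high-oil 40-day group (0.934), replicate 2 of the high-oil 35-day group (0.938) and replicate 1 of the low-oil 40-day group (0.941). The next values were 0.944, 0.946 and 0.949, so no gap sets these 3 off. They were left out together as 1 alternative, and changes from 15 to 40 days are given with and without them. So are the average line difference of crtRB1, the test of its course between lines and its ratio to lcyE. Symbols of 13 of 14 embryo, endosperm and seed coat markers stand in the RefSeq gene table of another assembly, but 0 could be tied to a feature with reads, so the tissue label was not checked against markers. How reads shared with related genes, such as other phytoene synthases and hydroxylases, were counted is not given in the sources used here, which leaves that part of each level uncertain.

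The 4 genes differed widely in level. Over all libraries the median level was 0.851 RPKM for psy1, 16.5 RPKM for lcyE, 107 RPKM for crtRB1 and 0 RPKM for zep1. The reads behind these levels numbered 20 to 224 per library for psy1, 242 to 4008 for lcyE and 2847 to 44261 for crtRB1. Counting error alone is therefore small for crtRB1 and larger for psy1.

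**Figure D1:**
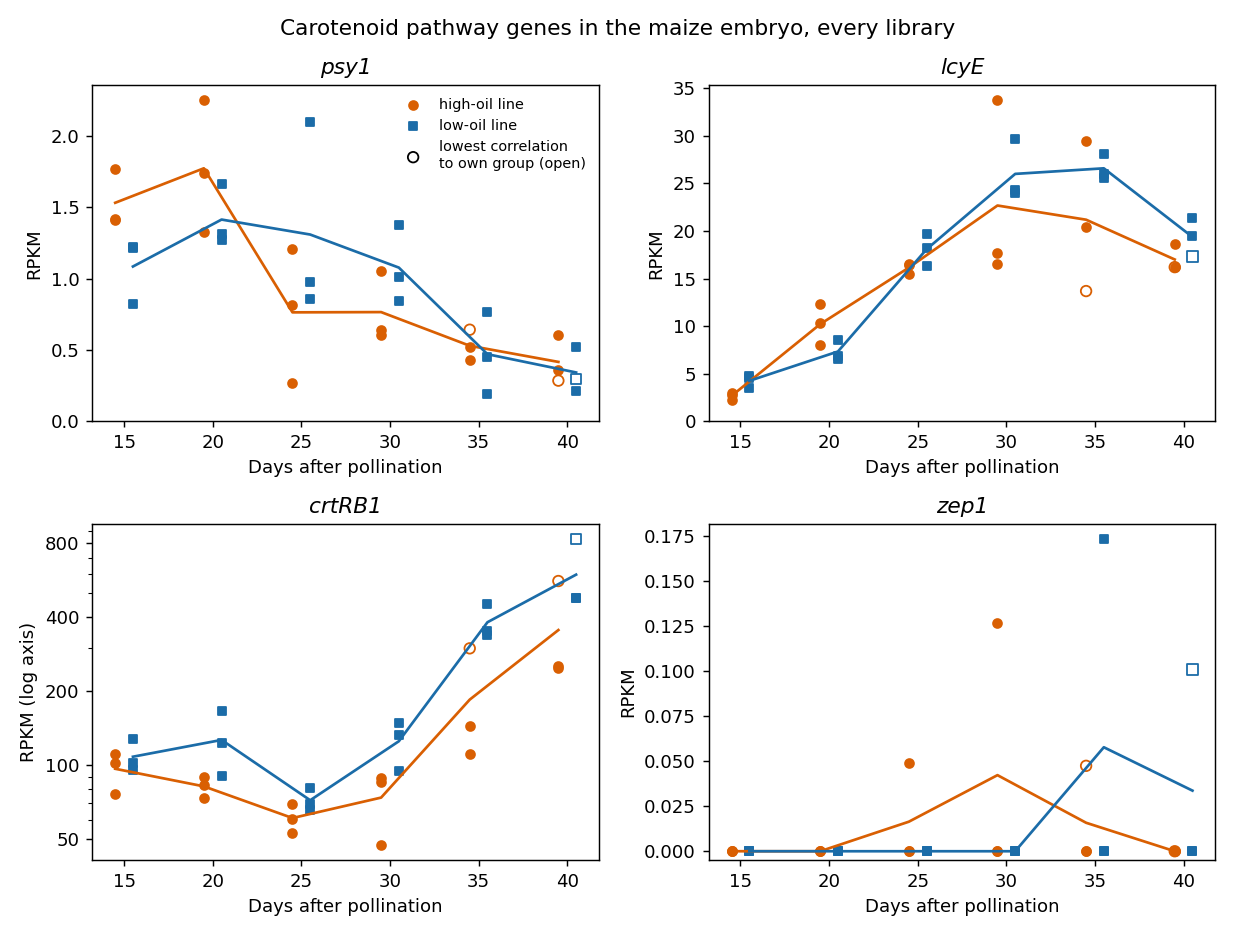
Level of each gene in RPKM against days after pollination, with 1 point per library, circles for the high-oil and squares for the low-oil line, lines through the group means, and open symbols for the 3 libraries with the lowest correlation to their group. Psy1 was lowest at 40 days, lcyE was highest at 30 and 35 days, crtRB1 (log axis) was highest at 35 and 40 days, and zep1 was at 0 in 31 of 36 libraries.

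The level of psy1, the entry enzyme, was low at every age and fell during development in both lines. In high-oil embryos its mean was 1.53 ± 0.204 RPKM (SD, n = 3) at 15 days and 0.417 ± 0.169 at 40 days, 3.67-fold lower. In the low-oil line it went from 1.09 ± 0.230 to 0.343 ± 0.160 RPKM, 3.16-fold lower. In such bulk tissue, fewer cells of a type and less RNA per cell cannot be told apart. By its mean, psy1 stood above 8.24% to 21.7% of the tested annotated genes in the 12 groups.

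At 15 days the high-oil libraries had 1.41, 1.42 and 1.77 RPKM of psy1, and the low-oil libraries 1.22, 0.820 and 1.22. At 20 days the values were 1.33, 2.25 and 1.74 in high-oil embryos and 1.66, 1.27 and 1.31 in low-oil embryos. The lines did not overlap at 15 days and overlapped at 20 days, where both had their highest means. At 25 days the high-oil libraries had 0.818, 1.21 and 0.267 RPKM, and the low-oil libraries 0.9752, 2.10 and 0.856. At 30 days the levels were 1.05, 0.606 and 0.642 against 1.01, 1.38 and 0.846. In both lines the SD was largest at 25 days, 0.473 RPKM in high-oil and 0.685 in low-oil embryos. Low-oil 25-day replicate 2 had the second highest psy1 level of all libraries and high-oil 25-day replicate 3 one of the lowest. At 35 days the high-oil libraries had 0.521, 0.643 and 0.428 RPKM, and the low-oil libraries 0.196, 0.453 and 0.765. At 40 days the levels were 0.286, 0.607 and 0.358 against 0.297, 0.212 and 0.522. No library reached 1 RPKM at 35 or 40 days, and the lines overlapped at both ages.

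From 15 to 40 days psy1 fell by 0.84 on the log2(RPKM + 1) scale in high-oil embryos (SE 0.20, limma adjusted p = 0.0008) and by 0.64 in low-oil embryos (SE 0.20, limma adjusted p = 0.0086). No library at 40 days reached 1 RPKM, so psy1 met the filter on low values through younger groups. In a fit of the groups at 15 and 40 days alone, the high-oil fall passed (limma adjusted p = 0.0048). There psy1 met the filter only through the 15-day libraries, where it was higher, so this call adds no separate support. The low-oil fall could not be tested in such a fit, because psy1 missed the filter. Without the 3 libraries of lowest correlation to their group the log2 values were -0.77 and -0.61 (limma adjusted p = 0.0068 and 0.03). All 3 tested genes passed this comparison in each line, against a background of 54.8% of all features in high-oil and 55.4% in low-oil embryos. Features that fell made up 37.4% and 37.2% of those tested. The size depended on the scale: with a pseudocount of 0.1 the log2 change was -1.70 in high-oil and -1.46 in low-oil embryos, and limma-voom on reads recovered from the RPKM steps gave -1.91 and -1.73. Over all tested features the median log2 value was -0.24 in each line. Median-of-ratios scaling brought it to 0.02, and with it the psy1 fall in low-oil embryos no longer passed (log2 -0.45, limma adjusted p = 0.068).

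Only 1 of the 10 steps between neighbouring ages passed for psy1, the fall from 20 to 25 days in high-oil embryos (log2 -0.68, SE 0.20, limma adjusted p = 0.017, where 20.6% of features passed in either direction and 16% fell). That call ended with median-of-ratios scaling (limma adjusted p = 0.073), in a fit of the compared groups alone (0.098), and without replicate 2 (0.11) or 3 (0.051) of the 20-day group or replicate 3 of the 25-day group (0.13). In the low-oil line the step from 30 to 35 days had the largest size, a log2 value of -0.51 (SE 0.20, limma adjusted p = 0.19).

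For psy1, 0 of 6 line differences at single ages passed in limma (0 at an unadjusted p below 0.05), while of all features 8.59% passed at 15 days, 11.3% at 20, 16.2% at 25, 10.4% at 30, 14.6% at 35 and 10.6% at 40 days. Averaged over ages, the log2 difference of the high-oil from the low-oil line was 0.00029 (95% interval -0.17 to 0.17, limma adjusted p = 1), and its sign changed when single libraries were left out. At single ages the log2 difference lay between -0.39 at 25 days and 0.28 at 15 days, with adjusted p-values of 0.21 and 0.6. At 15 days the high-oil mean was 1.41-fold the low-oil mean and the libraries did not overlap. When the 12 group means were put in order, each of the 11 neighbouring pairs overlapped.

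**Figure D2:**
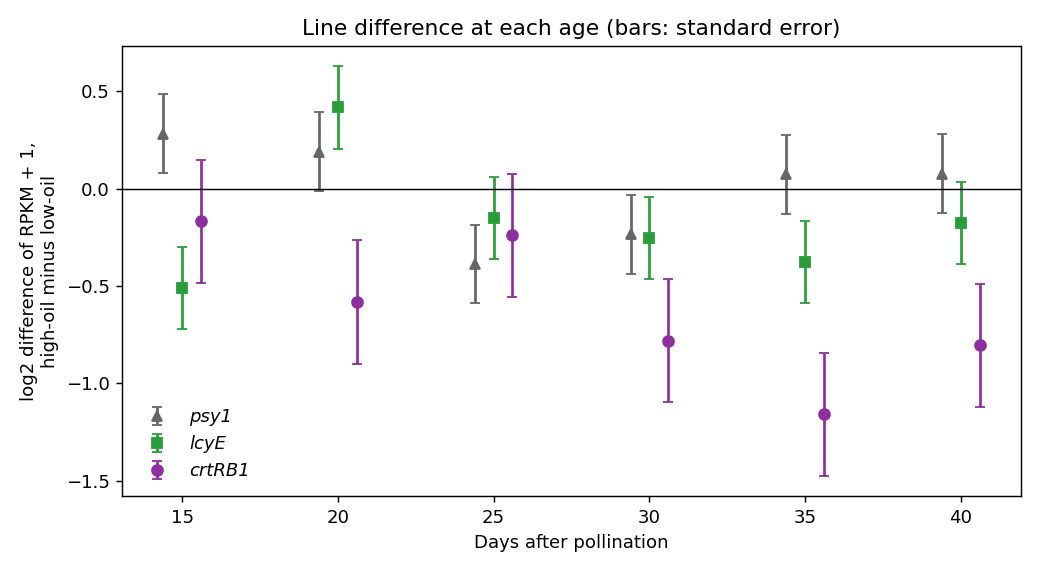
Difference of the high-oil from the low-oil line on the log2(RPKM + 1) scale at each age for psy1, lcyE and crtRB1, with bars for 1 standard error. The crtRB1 points lie below 0 at all 6 ages, and the one at 35 days (-1.16) is the farthest from 0.

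The level of lcyE, the epsilon-cyclase of the lutein branch, rose in both lines during the first part of the series. Its mean in high-oil embryos went from 2.69 ± 0.391 RPKM (SD, n = 3) at 15 days to 16.2 ± 0.580 at 25 days and 22.7 ± 9.62 at 30 days. In the low-oil line it went from 4.27 ± 0.651 to 18.1 ± 1.67 and 26.0 ± 3.19 RPKM at the same ages. By 40 days the means were 17.0 ± 1.40 and 19.4 ± 1.997 RPKM. In rank it climbed from above 25.9% of the tested annotated genes at 15 days to above 83.9% at 30 days in high-oil embryos, and from 33.7% to 85.4% in low-oil embryos.

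In the youngest embryos the lcyE levels were 2.80, 2.26 and 3.02 RPKM in the high-oil libraries and 3.53, 4.53 and 4.74 in the low-oil libraries. In the next group, at 20 days, they were 12.3, 8.02 and 10.4 RPKM against 8.56, 6.60 and 6.89. The lines did not overlap at 15 days, with the low-oil line higher, and overlapped at 20 days, with the higher mean in high-oil embryos. At 25 days the high-oil libraries had 16.5, 15.5 and 16.5 RPKM and the low-oil libraries 19.7, 16.4 and 18.2. At 30 days they had 17.7, 33.8 and 16.5 RPKM against 29.7, 24.3 and 24.05. One library, high-oil 30-day replicate 2, set the high mean and the wide spread of its group and had the highest lcyE level of all. At 35 days the levels were 29.5, 13.7 and 20.4 RPKM in high-oil and 25.6, 26.0 and 28.1 in low-oil embryos. At 40 days they were 16.2, 16.2 and 18.6 against 17.4, 21.3 and 19.4 RPKM. The low value at 35 days, 13.7 RPKM, belongs to high-oil 35-day replicate 2, 1 of the 3 libraries with the lowest correlation to their group.

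From 15 to 40 days lcyE rose by a log2 value of 2.29 in high-oil embryos (SE 0.21, limma adjusted p = 3e-10) and 1.95 in low-oil embryos (SE 0.21, limma adjusted p = 6.5e-09). The ratios of mean RPKM were 6.32 and 4.54. Features that rose over this span made up 17.3% of those tested in high-oil and 18.2% in low-oil embryos. Without the 3 libraries of lowest correlation the log2 values of the lcyE rise were 2.32 and 2.03. Both rises passed under every alternative that was run.

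The rise was placed early. Between 15 and 20 days lcyE rose in high-oil embryos by a log2 value of 1.59 (SE 0.21, limma adjusted p = 3.7e-06, where 18.2% of features passed in either direction and 5.09% rose). Between 20 and 25 days it rose in low-oil embryos by 1.20 (SE 0.21, limma adjusted p = 0.00021, where 15.2% passed and 5.27% rose). The other early steps were smaller: 0.63 between 20 and 25 days in high-oil embryos (SE 0.21, limma adjusted p = 0.034, where 4.55% of features rose) and 0.66 between 15 and 20 days in low-oil embryos (SE 0.21, limma adjusted p = 0.034, where 14.4% passed and 4.16% rose). These smaller calls were not stable. The high-oil step lost its call when any 1 of 5 libraries was left out (limma adjusted p up to 0.19), namely high-oil 20-day replicates 2 and 3 and the 3 high-oil 25-day libraries. The low-oil step lost it without any 1 of the 6 compared libraries (up to 0.14) and with limma-voom (0.084), and both ended with no filter on low values (0.056 and 0.054). From 25 days on, 0 of the 6 lcyE steps passed in limma. Between 25 and 30 days 0.481% of all features passed in high-oil and 6.69% in low-oil embryos, and between 35 and 40 days 1.94% and 0.0606%. Of these lcyE steps 2 had an unadjusted p below 0.05, a log2 value of 0.50 between 25 and 30 days and -0.44 between 35 and 40 days, both in low-oil embryos. The earlier of these passed with quantile normalization (log2 0.68, limma adjusted p = 0.037).

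Averaged over ages, the lcyE line difference was a log2 value of -0.18 (SE 0.086, 95% interval -0.35 to 0.0010, limma adjusted p = 0.13) and did not pass. It passed without high-oil 30-day replicate 2 (log2 -0.23, limma adjusted p = 0.02) or without high-oil 35-day replicate 1 (-0.22, 0.036), which were the libraries with the highest lcyE levels in their groups. At single ages the difference lay between -0.51 at 15 days (limma adjusted p = 0.17) and 0.42 at 20 days (0.25). Its sign at 25 days turned from -0.15 to 0.033 with median-of-ratios scaling. Of the 11 neighbouring pairs in the order of group means, 8 overlapped. The pairs that did not were the high-oil and low-oil groups at 15 days, low-oil 15 and 20 days, and high-oil 20 and 25 days.

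The level of crtRB1, the hydroxylase that makes zeaxanthin, was the highest of the 4 in every library and rose late. Its lowest group means, 61.1 ± 8.10 RPKM (SD, n = 3) in high-oil and 72.1 ± 7.68 in low-oil embryos, were those at 25 days. By 40 days the means were 355 ± 179 and 597 ± 205 RPKM. Its mean stood above 94.1% to 99.2% of the tested annotated genes in high-oil and 94.4% to 99.4% in low-oil embryos. The step to these late levels lay between 30 and 35 days in low-oil embryos.

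**Figure D3:**
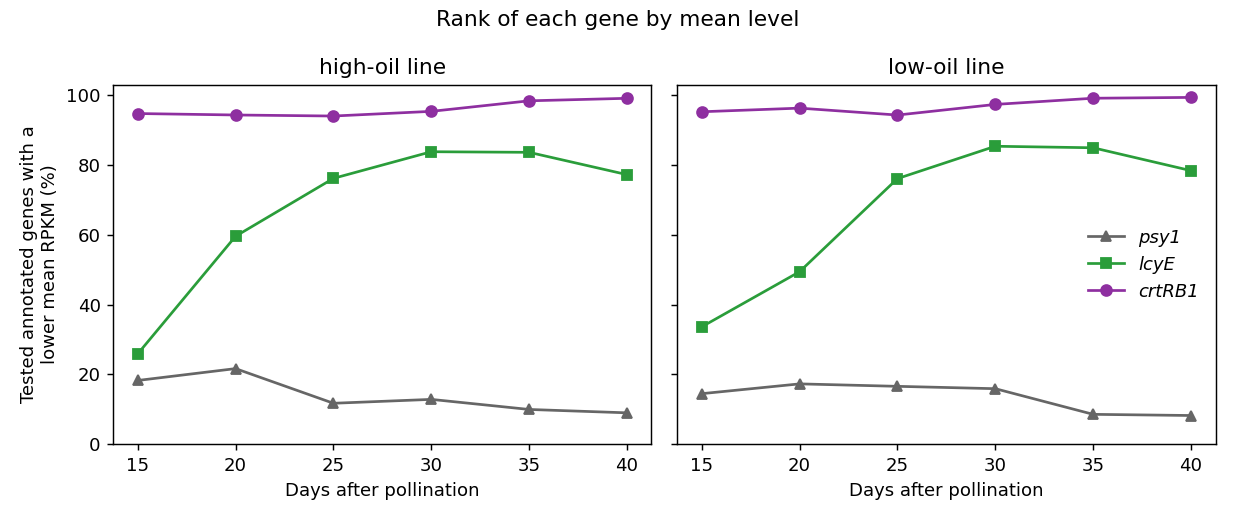
Share of the tested annotated genes with a lower mean RPKM, in percent, against days after pollination for psy1, lcyE and crtRB1, in high-oil embryos at left and the low-oil line at right. The crtRB1 line runs from 94.1% to 99.4%, lcyE climbs from 25.9% and 33.7% to 83.9% and 85.4% at 30 days, and psy1 reaches at most 21.7%.

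At 15 days the crtRB1 levels were 102, 112 and 76.6 RPKM in the high-oil libraries and 102, 128 and 95.8 in the low-oil libraries. At 20 days they were 73.5, 83.3 and 89.6 RPKM against 166, 124 and 90.6. The lines overlapped at 15 days, and at 20 days every high-oil library lay below every low-oil library, if only just. How many of all features were apart in this way was not counted. At 25 days the high-oil libraries had 69.5, 60.4 and 53.3 RPKM and the low-oil libraries 80.7, 66.0 and 69.6. At 30 days they had 88.9, 47.5 and 85.5 RPKM against 149, 94.4 and 132. The lines overlapped at 25 days and were apart at 30 days. At 35 days the levels were 111, 299 and 145 RPKM in high-oil and 454, 352 and 340.1 in low-oil embryos. At 40 days they were 562, 254 and 249 against 833, 479 and 478 RPKM. At 35 days all high-oil libraries lay below the low-oil ones, and at 40 days 1 high-oil library, replicate 1, reached into the low-oil range. In the order of the 12 group means 10 of 11 neighbouring pairs overlapped, and the low-oil 40-day group did not overlap the next lower one. The 3 libraries with the lowest correlation to their group, high-oil 35-day replicate 2 and replicate 1 of both 40-day groups, each had the highest crtRB1 level of their group. The part of this lower correlation in the crtRB1 results was not tested.

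From 15 to 40 days crtRB1 rose by a log2 value of 1.77 in high-oil embryos (SE 0.32, limma adjusted p = 2.4e-05) and 2.41 in low-oil embryos (SE 0.32, limma adjusted p = 2.1e-07). The ratios of mean RPKM were 3.67 and 5.50. Without the 3 libraries the rises were 1.39 (SE 0.25, limma adjusted p = 3.6e-05) and 2.14 (SE 0.25, limma adjusted p = 6e-08). Both passed under every alternative that was run.

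Among the steps, the one from 30 to 35 days passed in both lines. In the low-oil line it was a log2 value of 1.61 (SE 0.32, limma adjusted p = 0.0045), where 2.76% of features passed in either direction and 1.44% rose. In the high-oil line it was 1.24 (SE 0.32, limma adjusted p = 0.03), where 2.87% passed and 0.888% rose. The high-oil call rested on single libraries: it ended without 35-day replicate 2 (log2 0.83, limma adjusted p = 0.24) and without 30-day replicate 2 (0.95, 0.15) or 3 (1.37, 0.064). It also ended in a fit of the compared groups alone (0.26) and with no filter (0.057). In that line the step from 35 to 40 days, 0.96 (SE 0.32, limma adjusted p = 0.13), passed without high-oil 35-day replicate 2 (log2 1.37, limma adjusted p = 0.018), so the date of the high-oil rise depended on this library.

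Of the tested genes, crtRB1 was the 1 that differed between the lines averaged over ages. Its log2 difference of the high-oil from the low-oil line was -0.62 (SE 0.13, 95% interval -0.89 to -0.36, limma adjusted p = 0.00033), and the high-oil mean was lower at 6 of 6 ages. Of all features, 31.9% passed this comparison and 21.2% were lower in high-oil embryos, so 1 in 3 tested genes is near the background. The difference passed with each library left out (log2 -0.69 to -0.57) and with every other scaling, filter and model that was run. It was below the size of 1 log2 unit. Without the 3 libraries of lowest correlation it was -0.71 (SE 0.096, limma adjusted p = 1e-06). The genome build named for both lines is that of B73, and whether sequence differences from it lower the reads of 1 line was not tested.

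At single ages the crtRB1 line difference passed at 35 days alone, where the low-oil mean was 2.06-fold the high-oil mean (log2 -1.16, SE 0.32, limma adjusted p = 0.011, against a background of 14.6% of features and 9.75% lower). That call ended with median-of-ratios scaling (log2 -1.001, limma adjusted p = 0.06), quantile normalization (-0.87, 0.055), the compared groups alone (limma adjusted p = 0.086), and without high-oil 35-day replicate 1 (-0.86, 0.1) or low-oil 35-day replicate 1 (-1.03, 0.061). Without high-oil 35-day replicate 2 it was larger (-1.57, limma adjusted p = 0.0007). Values at the other ages ran from -0.17 at 15 days to -0.81 at 40 days (limma adjusted p = 0.93 and 0.11). At 40 days the difference passed without high-oil 40-day replicate 1 (-1.19, limma adjusted p = 0.011).

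Whether the course over age differed between the lines was tested as an interaction. The moderated F of limma was 1.63 for psy1, 2.29 for lcyE and 1.40 for crtRB1, with adjusted p-values of 0.45, 0.28 and 0.52, so 0 of the 3 tested genes passed, against a background of 6.68% (limma, 0 of 3 at an unadjusted p below 0.05). With single libraries left out, the lowest adjusted p for crtRB1 was 0.17. Without the 3 libraries of lowest correlation to their group, however, the crtRB1 interaction passed (F 4.71, limma adjusted p = 0.035). Those libraries each had the highest crtRB1 level of their group, so this result depended on them. The difference between the lines in the change from 15 to 40 days was a log2 value of -0.21 for psy1, 0.34 for lcyE and -0.64 for crtRB1. Its 95% intervals were -0.79 to 0.38, -0.28 to 0.95 and -1.55 to 0.28, and 0 of 3 passed (limma adjusted p = 0.86, 0.74 and 0.63, against a background of 3.14%).

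The ratio of crtRB1 to lcyE within a library sets the zeaxanthin branch step beside the lutein branch step, and does not depend on how libraries are scaled. It was lowest in the middle of the series in both lines. The mean log2 ratio of RPKM + 0.1 was 5.11 ± 0.474 (SD, n = 3) at 15 days, 1.90 ± 0.195 at 25 days, 1.72 ± 1.07 at 30 days and 4.27 ± 0.735 at 40 days in high-oil embryos. The low mean and wide spread at 30 days came from replicate 2, at 0.49, while the other libraries had 2.32 and 2.36. In the low-oil line it was 4.64 ± 0.285, 1.99 ± 0.0517, 2.25 ± 0.260 and 4.89 ± 0.599 at the same ages. On the linear scale crtRB1 thus stood 34.5-fold above lcyE at 15 days, 3.74-fold at 25 days and 19.3-fold at 40 days in high-oil embryos, and 24.9-fold, 3.97-fold and 29.7-fold in low-oil embryos. Change of the ratio over age was not tested as such. The lcyE rise between 15 and 25 days and the crtRB1 rise between 30 and 35 days are the 2 parts of it that passed for the single genes.

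**Figure D4:**
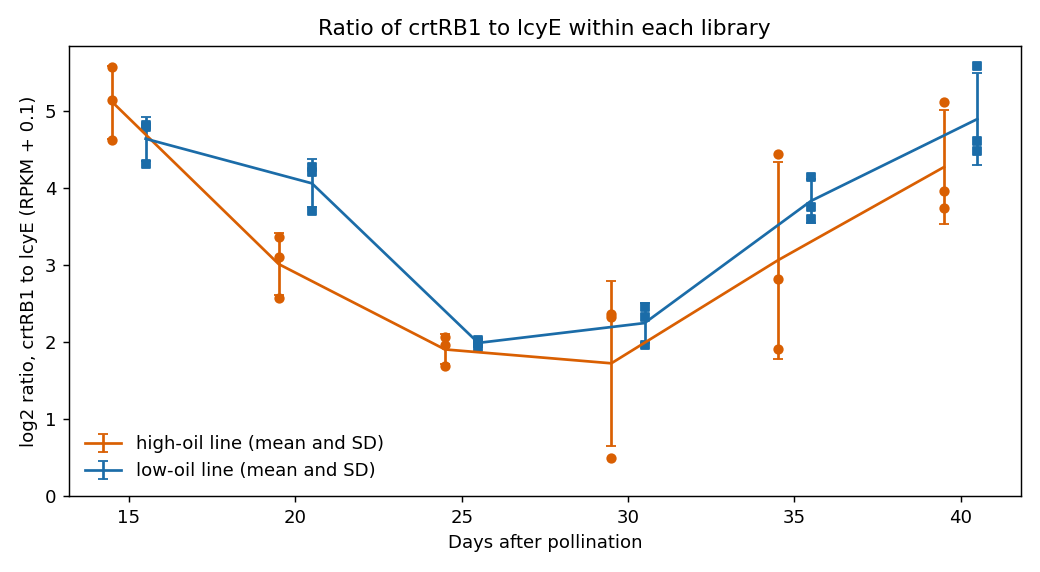
The log2 ratio of crtRB1 to lcyE in each library (RPKM + 0.1) against days after pollination, with points for libraries and lines and bars for the group mean and SD. Both lines form a trough at 25 and 30 days, and the high-oil line lies lower at 5 of 6 ages.

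Averaged over ages, this log2 ratio was 0.43 lower in high-oil embryos, a difference of -0.43, with the high-oil mean lower at 5 of 6 ages (permutation p = 0.046, two-sided, 100000 resamples of the line labels within age, 18 libraries per line). By age the difference was 0.48 at 15 days, -1.05 at 20, -0.085 at 25, -0.52 at 30, -0.77 at 35 and -0.62 at 40 days. The test is at the edge of the threshold: leaving out 1 library raised the p above 0.05 for 19 of 36 libraries, to at most 0.096. A planned adjustment together with a ratio of zep1 to psy1 fell away, since that ratio was not computed. The permutation p of 0.046 is therefore unadjusted. With RPKM + 1 the difference was -0.45 (permutation p = 0.031). Without the 3 libraries of lowest correlation to their group it was -0.56 (permutation p = 0.0054).

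The row for zep1, the epoxidase on the route to abscisic acid, was nearly empty. It held 21 reads in all, in 5 of the 36 libraries: 2 in high-oil 25-day replicate 3, 5 in high-oil 30-day replicate 3, 2 in high-oil 35-day replicate 2, 8 in low-oil 35-day replicate 1 and 4 in low-oil 40-day replicate 1. The highest level was 0.173 RPKM. The high-oil line had 9 reads and the low-oil line 12. In the 7 groups without a read, a count of 0 allows up to 0.0212 to 0.0275 RPKM (3 reads over the group, counting error only). The reads and this limit rest on a recovered length of 793 bases, the shortest that gave whole reads. A longer length would raise the reads and lower the limit. Whether the row covers the whole zep1 transcript was not tested. No comparison of lines or ages was made, since no group had reads in more than 1 library. This describes the row as deposited, and whether zep1 transcripts were counted under another feature was not tested.

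The 3 measured genes did not share a course. Over the 12 group means of log2(RPKM + 1), Pearson's r was -0.63 between psy1 and lcyE, -0.71 between psy1 and crtRB1 and 0.32 between lcyE and crtRB1. These are descriptions over groups that share libraries and scaling, with no test. Among 23756 other tested annotated genes, the one most like psy1 in its group means was Zm00001d040695 (r = 0.98), which ran from 105 RPKM in high-oil embryos at 20 days to 17.9 at 40 days. The one most like lcyE was Zm00001d045269 (r = 0.98), with 0.897 RPKM at 15 and 10.1 at 35 days in high-oil embryos. The one most like crtRB1 was Zm00001d052904 (r = 0.98), with 6.38 RPKM at 25 and 13.5 at 40 days in low-oil embryos. The files used here do not pair these IDs with names. An r of at least 0.9 was shared with psy1 by 249 genes (1.05%), with lcyE by 458 (1.93%) and with crtRB1 by 160 (0.674%).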

How the data were processed

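The authors deposited 1 table of RPKM values with 1 column per library, and 0 columns were left unused. Per the submitters' processing notes, FastQC, TopHat2, Cufflinks and the build B73 RefGen_v4 were named, without versions or roles. Which annotation and counter made the values, and whether strand was used, is not given in the sources used here.

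Library totals were solved first, from ratios between libraries and from whole feature lengths. All 51853 features above 0 then resolved to whole reads within a tolerance of 0.0001 reads, or 5e-09 of the count where that is larger. For each feature the shortest length that gave whole reads was taken, so recovered reads and lengths are the smallest possible. Summed over features, recovered reads missed the library totals by at most 1213. Groups, ages and replicate numbers came from the labels. The fit used limma 3.58.1 in R 4.3.3 on log2(RPKM + 1) with a mean-variance trend. It was run on simulated reads with a constant line effect and no change over age. Only the averaged line difference and false interaction calls were scored there, so other comparisons were not covered. The ratio used a permutation test. The gene named as most alike was the annotated ID with the highest Pearson r over group means. The 4 genes, the lists, the tests and the 3 libraries left out together were chosen with earlier results of these data known.

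Gene symbols came with the choice of genes. The RefSeq table (Zm-B73-REFERENCE-NAM-5.0) holds 3 of the 4 symbols, all but zep1, and 0 of the 44146 annotated IDs, so the pairing was not checked. Of 25 symbols of other carotenoid and abscisic acid genes 11 stand in it and 0 could be tied to a feature, so those genes were not analysed here. Alternatives are listed with the limits. A planned ratio of zep1 to psy1 was not computed because zep1 had reads in 5 libraries.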

Additional observations from a re-analysis of the deposited data

How the results depend on the processing

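For the 3 tested genes and the ratio, 64 results were recomputed. Of 2898 alternative values 2792 kept the direction and the side of the threshold. Of the 39 that changed sign 0 belonged to a result that had passed. Single libraries left out gave 2304 of the 2898 values, and 2230 of these 2304 were the same. Most of those libraries lay outside the groups of a given step or single-age comparison, which left its size unchanged by construction. The setting with a minimum size reused the main values, so results that had not passed could not change there. The share that agreed is therefore not a measure of stability. Depth limits psy1, with as few as 20 reads in a library, and zep1 most. The quasi-likelihood test on recovered reads was not run, the 5 RPKM minimum gave no psy1 value, and the fit of compared groups gave none where psy1 missed the filter. The cause of the changes below was not tested.

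Among scalings, median-of-ratios gave log2 0.033 for lcyE between lines at 25 days, -1.001 for crtRB1 between lines at 35 days, and for psy1 -0.55 from 20 to 25 days in high-oil and -0.45 from 15 to 40 days in low-oil embryos. Quantile normalization gave 0.015 for lcyE between lines at 25 days, 0.0027 from 30 to 35 days in high-oil embryos, and 0.68 from 25 to 30 and -0.036 from 30 to 35 days in low-oil embryos, and -0.87 for crtRB1 between lines at 35 days. With no filter, calls ended at unchanged sizes for lcyE (0.63 from 20 to 25 days, high-oil, and 0.66 from 15 to 20 days, low-oil) and crtRB1 (1.24 from 30 to 35 days, high-oil). A minimum of 1 log2 unit ended those lcyE calls (0.63 and 0.66), crtRB1 averaged over ages (-0.62), and psy1 (-0.68 from 20 to 25 days, and -0.84 and -0.64 from 15 to 40 days). The compared groups alone ended crtRB1 at 35 days (-1.16) and from 30 to 35 days (1.24) and psy1 from 20 to 25 days (-0.68). Limma-voom gave 0.79 for lcyE from 15 to 20 days in low-oil embryos. By Spearman's rho, another gene was most like psy1 and lcyE, and the same one most like crtRB1.

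The 3 libraries of lowest correlation to their group hold the highest crtRB1 level of their groups and have no gap from the next library, so calls gained without them depend on where that limit was put. Without them crtRB1 had -0.78 between lines at 30 and -0.92 at 40 days, 0.83 from 30 to 35 and 0.98 from 35 to 40 days in high-oil embryos, and -0.77 from 20 to 25 and 0.77 from 25 to 30 days in low-oil embryos. Its interaction F was then 4.71, which passed (limma adjusted p = 0.035). There lcyE had 0.18 from 30 to 35 days and psy1 0.0041 from 35 to 40 days in high-oil embryos, and psy1 -0.0010 between lines averaged over ages.

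Leaving out single libraries, line differences of psy1 ran from -0.068 to 0.21 at 35 days, -0.017 to 0.17 at 40 days and -0.030 to 0.039 averaged. For lcyE the average ran from -0.23 to -0.13. For crtRB1 they ran from -1.57 to -0.86 at 35 and -1.19 to -0.54 at 40 days. High-oil steps of psy1 ran from -0.0011 to 0.24 (15 to 20 days), -0.86 to -0.46 (20 to 25) and -0.19 to 0.21 (25 to 30). High-oil steps of lcyE ran from 0.48 to 0.76 (20 to 25), -0.34 to 0.23 (30 to 35) and -0.51 to 0.019 (35 to 40), and of crtRB1 from 0.83 to 1.53 (30 to 35) and 0.57 to 1.37 (35 to 40). Low-oil steps of psy1 ran from -0.33 to 0.039 (20 to 25), -0.26 to 0.11 (25 to 30) and -0.26 to 0.021 (35 to 40), of lcyE from 0.56 to 0.73 (15 to 20) and -0.015 to 0.13 (30 to 35), and of crtRB1 from -0.023 to 0.41 (15 to 20). The log2 ratio of crtRB1 to lcyE ran from -0.54 to -0.33.

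The replicate numbers did not pair the libraries across all ages. Deviations of same-numbered libraries of the lines correlated between -0.296 and 0.394, and over 0.1 in 5 of 18 pairs, though 15 of 36 libraries correlated best with their own number. By replicate number the values were 0.394, 0.308 and 0.0984 at 40 days and -0.11, -0.296 and -0.188 at 35 days. Pairing at 40 days alone was not tested. With the replicate block no call changed for the 3 genes, and the crtRB1 line difference averaged over ages was -0.62 (limma adjusted p = 0.00021). For the ratio the block gave -0.43 (permutation p = 0.035).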
